A study of Mus musculus with 8 samples.

Results

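Receptors for the constant (Fc) part of antibodies connect IgG, IgE and IgM to the immune cells that carry them. The 9 mouse genes described here were taken by symbol from the 32285 genes in the deposited tables: the IgG receptor genes Fcgr1, Fcgr2b, Fcgr3 and Fcgr4, the 3 chains of the high-affinity IgE receptor (Fcer1a, Ms4a2 and Fcer1g), the low-affinity IgE receptor gene Fcer2a, which encodes CD23, and the IgM receptor gene Fcmr. All 9 were present in each of the 8 libraries. As background, the proteins of Fcgr1, Fcgr3 and Fcgr4 bind IgG and activate the cell through the gamma chain made by Fcer1g, whereas the protein of Fcgr2b carries an inhibitory motif and restrains the same cells and B cells. IgE held by the alpha chain Fcer1a, together with the beta chain Ms4a2 and the gamma chain, arms mast cells and basophils, the cells that release histamine when an allergen cross-links their IgE. CD23 and the IgM receptor are known from B cells, and the IgG receptors of brain macrophages and microglia bind antibodies directed against amyloid.

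The study asked how inflammation of the gut changes the immune cells of the brain in a mouse with amyloid pathology. CD45.2+ cells were sorted from perfused brain parenchyma of WT (C57BL/6J) mice and of App NL-G-F mice, knock-in animals whose humanised App carries the Swedish, Arctic and Iberian mutations, and were profiled by 5′ single-cell RNA sequencing with hashtag antibodies that mark the samples pooled in a library. Each genotype gave 4 libraries: control (water), acute colitis (2% dextran sulfate sodium, DSS, in the drinking water for a week), chronic colitis (3 cycles of 2% DSS and water) and food allergy (by the study's methods, ovalbumin with alum injected into the abdomen, then ovalbumin by mouth). The labels gave an age of 16 weeks for all 8 libraries, and there was 1 library per genotype and treatment, so that library and condition cannot be told apart. A total of 50038 cells passed the filters, 4661 with several hashtags were left out, and the 45377 cells used held 253736967 unique molecular identifiers (UMIs, counted transcript molecules), between 22704082 in the WT acute colitis library and 46888575 in the App NL-G-F acute colitis library. The 24 cell types were named from marker genes of clusters made without the 9 genes, and a name such as macrophages stands for macrophage-like cells throughout. Microglia, the brain's resident macrophages, were almost missing from the sort with 72 cells, and 319 fibroblasts and 339 erythroid cells were present. Levels are CPM (UMIs of a gene per 1000000 UMIs of the cell type), given as mean ± SD over libraries with at least 20 cells of the type, which limits them to the spread between libraries. One molecule gives 1 UMI at its 5′ end irrespective of transcript length.

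Features of the libraries bear on every comparison below. Cells with exactly 1 hashtag fell into 30 groups (3 or 4 per library), which served as replicates. The labels do not say whether a hashtag was a mouse, so p-values measure the spread between these groups. For App NL-G-F chronic colitis the study gives fewer animals than there were hashtag groups here, so groups of that library may share an animal and its p-values may be too small. The summed level of 10 immediate-early genes (Fos, Jun, Egr1 and others, induced within minutes of stress or handling) in T cells divided the groups into 14 with 607 to 1450 CPM and 16 with 3360 to 6588 CPM, and most macrophages, monocytes and conventional dendritic cells came from the higher 16, whereas most plasmacytoid dendritic cells came from the lower 14. Most comparisons of macrophages, monocytes and conventional dendritic cells therefore rested on 2 groups per condition. The WT control library stood apart from the others: Hcst, the adaptor chain DAP10 of lymphocyte receptors, had 391 CPM in its NK cells against 830 CPM in the App NL-G-F control and 817, 769 and 627 CPM in the other WT libraries (acute colitis, chronic colitis, food allergy). Any contrast against WT control inherits that difference. The App NL-G-F contrasts, given beside the WT ones, compare no group of that library. Its groups still share the fit of each cell type, so App NL-G-F p-values also depend on them. Pairs of libraries shared 34 to 72 cell barcodes in the 28 pairs.

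The IgG receptor genes lie close together. In GRCm38 (mm10) Fcgr2b (chr1:170958617-170976547, minus strand), Fcgr4 (chr1:171018920-171029761, plus strand), Fcgr3 (chr1:171051174-171064935, minus strand) and Fcer1g (chr1:171229572-171234365, minus strand) lay within 275.7 kb of chromosome 1. Fcer1a (chr1:173221284-173227214, minus strand) and Fcmr (chr1:130865669-130880791, plus strand) lay elsewhere on the same chromosome, Fcgr1 on chromosome 3 (chr3:96282909-96293969, minus strand), Ms4a2 on chromosome 19 (chr19:11615523-11623719, minus strand) and Fcer2a on chromosome 8 (chr8:3681737-3694175, minus strand). Fcgr3 and Fcgr2b are near copies over part of their length: 9.58% of the 50-base words of Fcgr3 transcripts, and 14.9% of those in their first 500 bases, also occurred in Fcgr2b. Reads from those stretches can be assigned to either gene or discarded, so low values of one beside high values of the other are uncertain. The antisense gene Gm38204 overlaps 3175 bases of Fcgr2b on the other strand.

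Fcgr1, the high-affinity IgG receptor CD64, was a transcript of macrophages. Its level there was 276 ± 48.0 CPM (SD, n = 8 libraries), with a lowest library of 221 CPM, a median of 271 CPM and a highest of 344 CPM, and 50.2% of 1534 macrophages held a UMI. The 2 libraries with at least 20 microglia had 288 and 316 CPM, within the range of the macrophages. Classical monocytes followed with 115 ± 37.3 CPM (80.0 to 166 CPM), below every macrophage library. Type 2 conventional dendritic cells (cDC2), which present antigen to CD4 T cells, had 47.0 ± 24.9 CPM, and their 2 highest libraries were the food allergy libraries of WT (79.0 CPM) and App NL-G-F (88.9 CPM) mice. Neutrophil precursors had 20.2 ± 6.14 CPM and mature neutrophils 2.75 ± 3.52 CPM. In CD4 T cells, which lack the receptor, 2 UMIs were counted in 3425 cells (0.224 CPM), so that values near 1 CPM are background. Empty droplets held a median of 12.1 CPM.

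Fcgr4, the activating receptor for IgG2a and IgG2b, was shared by 3 cell types. Macrophages had 150 ± 65.8 CPM (lowest 65.6, median 143, highest 243), classical monocytes 76.5 ± 32.1 CPM (19.4, 69.5 and 117) and neutrophils 53.9 ± 20.3 CPM (30.4, 54.6 and 95.4). The mean of macrophages lay above that of monocytes by more than the larger SD although the libraries overlapped, and monocytes and neutrophils did not differ beyond their SD. The large number of neutrophils made them the source of 54.7% of all Fcgr4 UMIs. The WT acute colitis library had the lowest macrophage level and the App NL-G-F control library the highest. Microglia had 2 UMIs of Fcgr4 in 72 cells against 173 UMIs of Fcgr3, and CD4 T cells 3 UMIs. Macrophages with Fcgr1 and Fcgr4 together were 281 of 1534.

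The 250 bases before the start of Fcgr1 and Fcgr4 (RefSeq annotation, GRCm38.p6, written 5′ to 3′ along each gene) are shown because macrophages and monocytes were high for both genes. The capitals mark TTCCTC, the complement of GAGGAA, the core that factors of the PU.1 family are known to bind. Fcgr1 covers chr3:96293970-96294219 on the minus strand and Fcgr4 chr1:171018676-171018925 on the plus strand, the latter ending 6 bases inside the GENCODE gene.
Fcgr1: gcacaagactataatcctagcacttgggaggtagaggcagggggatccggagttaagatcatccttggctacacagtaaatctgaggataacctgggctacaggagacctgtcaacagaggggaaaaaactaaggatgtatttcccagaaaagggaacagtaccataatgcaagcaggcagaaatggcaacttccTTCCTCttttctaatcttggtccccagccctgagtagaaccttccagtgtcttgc
Fcgr4: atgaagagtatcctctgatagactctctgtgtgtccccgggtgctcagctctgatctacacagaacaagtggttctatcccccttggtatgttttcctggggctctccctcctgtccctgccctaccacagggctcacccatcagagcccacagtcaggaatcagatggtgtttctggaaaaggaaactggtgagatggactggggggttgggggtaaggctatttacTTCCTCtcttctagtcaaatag
The match began 55 bases before the start of Fcgr1 and 22 bases before that of Fcgr4. GAGGAA, searched on both strands, had 1 match in the windows of Fcgr1, Fcgr3, Fcgr4, Fcer1a and Fcmr, 0 in the other 4 genes, and occurred in 23.3% of 32851 windows of this length. TTCNNNGAA, the letters of a STAT site, which reads the same on both strands, matched once in the Fcgr1 window and in none of the other 8 genes, against 7.02% of all windows.

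Fcgr3 encodes CD16, an activating receptor of low affinity. Macrophages had 658 ± 113 CPM (lowest 514, median 631, highest 833) and the 2 libraries with microglia 653 and 700 CPM. Basophils followed with 487 ± 77.1 CPM (n = 6 libraries), monocytes with 439 ± 140.0 CPM (282, 423 and 729) and neutrophils with 273 ± 74.4 CPM (175, 276 and 396). The basophil and monocyte levels did not differ beyond their SD. Mast cells had 211 ± 47.9 CPM (n = 7), neutrophil precursors 163 ± 26.2 CPM and cDC2 104 ± 34.3 CPM. NK cells, which kill antibody-coated targets through this receptor, had 75.9 ± 12.03 CPM and a UMI in 20.2% of 2813 cells, and 565 of their 567 cells with Fcgr3 also held Fcer1g. In CD4 T cells 0.467% of cells held a UMI of Fcgr3 at a median of 2350.0 UMIs per cell, against 3032 in NK cells. Neutrophils differed among themselves: their clusters ranged from 135 to 416 CPM of Fcgr3 and from 25.5 to 89.1 CPM of Fcgr4, with the same cluster highest and the same lowest for both genes.

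**Figure D1:**
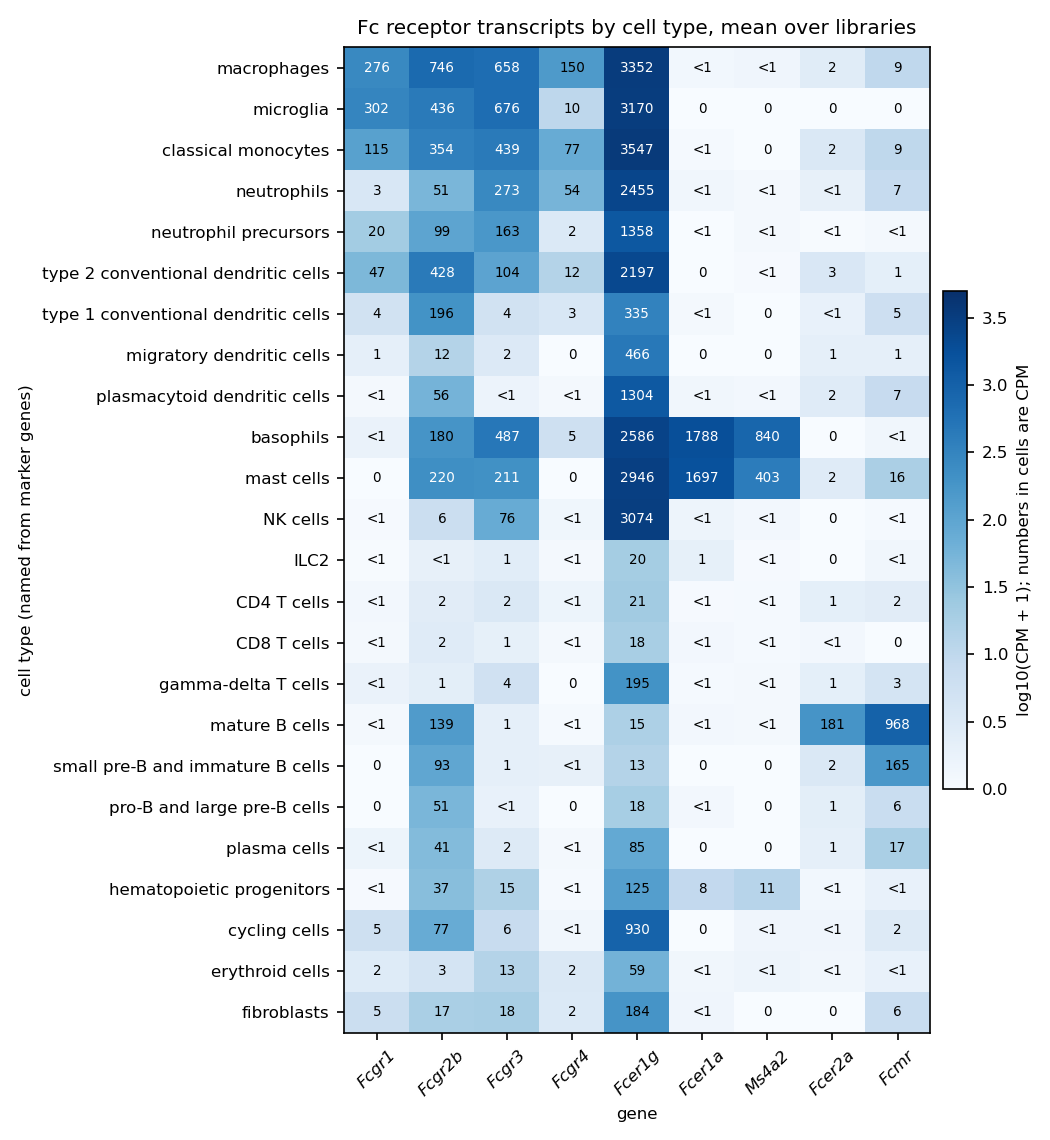
Level of the 9 Fc receptor genes (columns) in the 24 named cell types (rows) as the mean over libraries, with colour on a log10(CPM + 1) scale and the CPM printed in each cell. Fcer1g lay between 2197 CPM (cDC2) and 3547 CPM (monocytes) in 8 types, whereas Fcer1a and Ms4a2 exceeded 20 CPM only in basophils and mast cells, and Fcer2a only in mature B cells.

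Fcgr2b, the inhibitory IgG receptor, reached both myeloid cells and B cells. Macrophages had the highest level with 746 ± 179 CPM (lowest 580.2, median 694, highest 1088), and their highest libraries were the controls of WT (1088 CPM) and App NL-G-F (919 CPM) mice. cDC2 had 428 ± 93.1 CPM, monocytes 354 ± 136 CPM, mast cells 220.1 ± 67.4 CPM (n = 7), type 1 conventional dendritic cells (cDC1), which present antigen to CD8 T cells, 196 ± 41.9 CPM and basophils 179.9 ± 33.3 CPM (n = 6). Mature B cells had 139 ± 22.2 CPM and a UMI in 28.4% of 6860 cells. CD4 T cells had 1.57 ± 1.59 CPM.

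The balance of the inhibitory and the activating genes set the cell types apart. Of the UMIs of the 4 IgG receptor genes, Fcgr2b gave 99.0% in mature B cells, 97.8% in plasmacytoid dendritic cells, 94.7% in cDC1 and 72.6% in cDC2. It gave 50.3% in mast cells, 40.7% in macrophages, 35.5% in monocytes and 33.8% in neutrophil precursors, 26.3% in basophils, 11.6% in neutrophils and 6.76% in NK cells. Over the 8 libraries the macrophage share ran from 35.5% to 43.9% and the neutrophil share from 8.13% to 22.0%, so the ranges of these cells did not overlap. The monocyte share was lowest in WT chronic colitis (28.8%) and highest in App NL-G-F acute colitis (45.6%). Macrophages with UMIs of both Fcgr2b and Fcgr3 were 964 of 1534 and such monocytes 847 of 1348.

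**Figure D2:**
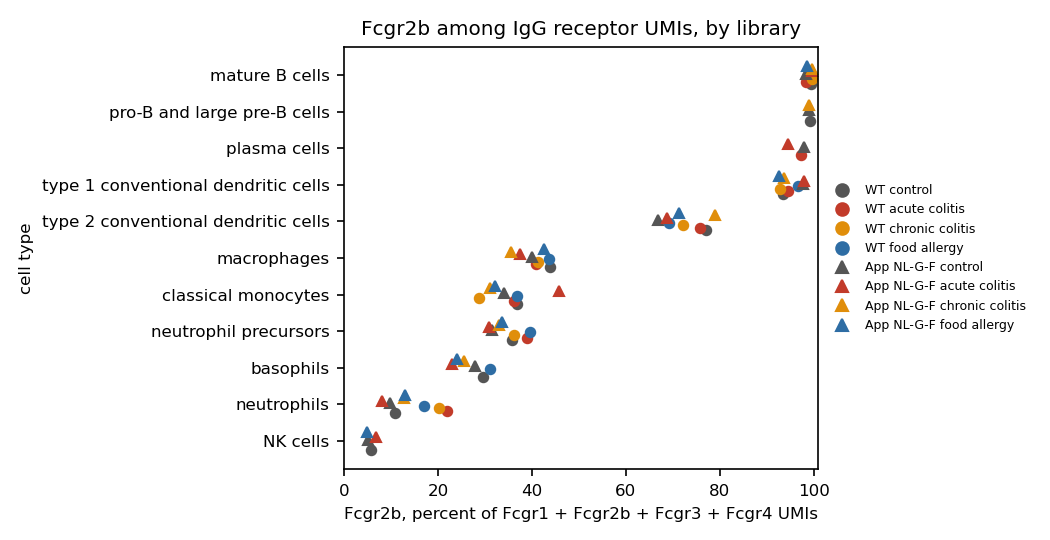
Fcgr2b UMIs as a percentage of the UMIs of Fcgr1, Fcgr2b, Fcgr3 and Fcgr4 (x axis) by cell type (y axis). There is 1 point per library that held enough of these UMIs. Mature B cells and cDC1 lay near the right end (99.0% and 94.7% pooled), macrophages and monocytes around 40.7% and 35.5%, and neutrophils near the left end (11.6%).

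Fcer1g, the gamma chain that the activating IgG receptors and the IgE receptor share, was the most abundant of the 9 genes with 276134 UMIs in the named types. Monocytes had 3547 ± 399 CPM, macrophages 3352 ± 347 CPM, NK cells 3074 ± 177 CPM, mast cells 2946 ± 623 CPM, basophils 2586 ± 414 CPM and neutrophils 2455 ± 177 CPM, and each of these differed from the next by less than the larger SD. cDC2 had 2197 ± 253 CPM and cDC1 335 ± 54.2 CPM. Gamma-delta T cells had 195 CPM and a UMI in 9.92% of cells, against 21.0 CPM and 3.15% in CD4 T cells. Both levels lay below that of empty droplets. Empty droplets held a median of 951 CPM of Fcer1g, the largest amount of free RNA among the 9 genes, so shares of a few percent in lymphocytes cannot be read as expression.

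The alpha and beta chains of the IgE receptor were carried mainly by 2 small populations, 392 basophils and 256 mast cells. Fcer1a had 1788 ± 561 CPM in basophils (n = 6 libraries, lowest 1085, median 1914, highest 2576) and 1697 ± 492.8 CPM in mast cells (n = 7, 885, 1905 and 2176), and these levels did not differ beyond their SD. Ms4a2 had 840.4 ± 80.0 CPM in basophils (753 to 942) and 403 ± 111 CPM in mast cells (174 to 512), and no mast cell library reached the lowest basophil library. The beta chain is known to amplify the signal of the IgE receptor. Fcer1a was found in 81.6% of basophils and 78.9% of mast cells, with 1 UMI in 3425 CD4 T cells. Both chains were seen in 282 of 392 basophils and 127 of 256 mast cells. Hematopoietic progenitors, the next type, had 8.26 CPM of Fcer1a and 11.2 CPM of Ms4a2.

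Over the 24 types the log2 levels of Fcer1a and Ms4a2 followed each other with Pearson's r of 0.996, as a description of types that share libraries. The 250 bases before the start of each (RefSeq annotation, GRCm38.p6, 5′ to 3′ along the gene) are therefore shown together. The capitals mark AGATAA or its complement TTATCT, the letters of a site for GATA factors, which mast cells and basophils are known to use. Fcer1a covers chr1:173227230-173227479 and Ms4a2 chr19:11623720-11623969, both on the minus strand.
Fcer1a: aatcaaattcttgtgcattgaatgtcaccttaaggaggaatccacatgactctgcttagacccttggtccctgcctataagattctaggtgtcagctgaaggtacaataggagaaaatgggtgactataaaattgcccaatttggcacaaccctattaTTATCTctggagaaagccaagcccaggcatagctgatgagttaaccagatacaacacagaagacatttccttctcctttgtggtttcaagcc
Ms4a2: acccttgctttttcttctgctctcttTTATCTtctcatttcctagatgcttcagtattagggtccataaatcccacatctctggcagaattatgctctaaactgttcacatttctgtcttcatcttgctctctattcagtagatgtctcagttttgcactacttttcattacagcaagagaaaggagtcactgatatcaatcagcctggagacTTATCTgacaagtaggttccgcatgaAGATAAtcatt
Fcer1a held 1 match, 92 bases before the start, and Ms4a2 held 3, the nearest 11 bases before it. None of the other 7 genes had a match in its window, and 9.99% of the 32851 windows held at least 1.

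**Figure D3:**
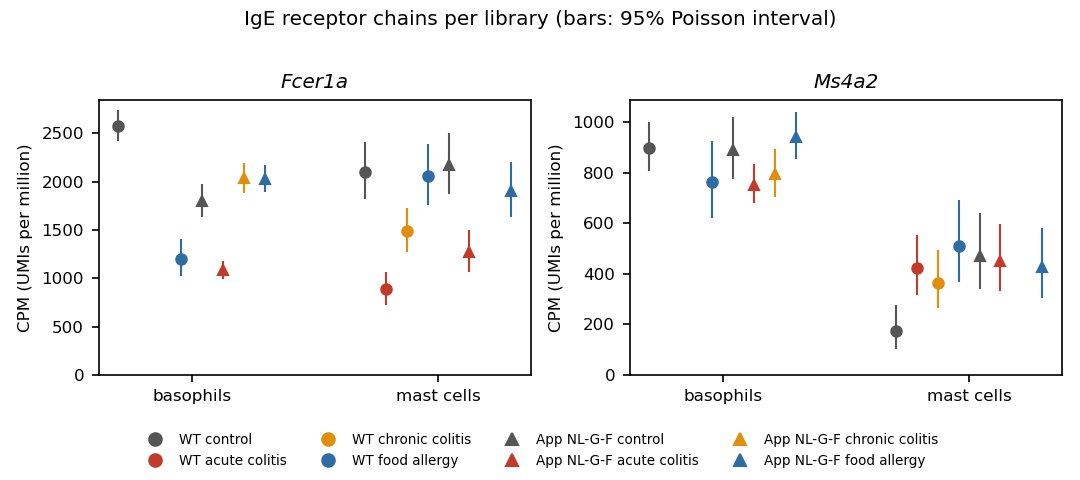
CPM of Fcer1a and Ms4a2 (panels, y axis from 0) in basophils and mast cells, with 1 point per library and bars for the 95% Poisson interval of the count. Fcer1a covered 1085 to 2576 CPM in basophils and 885 to 2176 CPM in mast cells, whereas the Ms4a2 points of mast cells all lay below those of basophils.

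Fcer2a and Fcmr belonged to mature B cells. Fcer2a, which binds IgE and IgE complexes on B cells, had 181 ± 34.4 CPM (lowest 142, median 183, highest 227), a UMI in 25.9% of 6860 cells and 94.1% of its UMIs in this type. The next type, cDC2, had 2.63 CPM. Fcmr, the receptor for the constant part of IgM, had 968 ± 58.5 CPM (898, 957 and 1068), a UMI in 78.9% of cells, and already 165 ± 53.4 CPM in small pre-B and immature B cells, where Fcer2a had 2.39 CPM. Plasma cells, which secrete antibody, had 16.8 CPM of Fcmr. Mast cells, used as the background for Fcmr, held 11 UMIs in 3 of 256 cells. The larger clusters of mature B cells (4172 and 2619 cells) had 164 and 239.7 CPM of Fcer2a but 956 and 988 CPM of Fcmr, and a small cluster of 69 cells had 19.8 and 572 CPM. Both genes were seen together in 1502 cells.

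For each gene the genes with the most similar levels over the 24 types were listed, up to 3 each (Pearson's r of log2(CPM + 10), a description without a test). Fcgr1 was near to Csf1r (r = 0.97) and Adgre1, both known from macrophages, and Fcgr4 to Cd300ld (r = 0.97), Klra2 and Clec4a2. Fcgr3 was nearest to Nlrp3 (r = 0.88), Lilrb4a and Rab31, and Fcgr2b to BC028528 (r = 0.86), Rassf4 and Spi1, which encodes PU.1. Fcer1g was nearest to Tyrobp (r = 0.94), another adaptor chain, followed by Fes and Fcgr3. Fcer1a was nearest to Cd200r3, Cyp11a1 and Ms4a2, and Ms4a2 to Gm11697, Fcer1a and Cd200r3. Fcer2a was nearest to Cr2 (r = 0.95), the complement receptor of B cells, Ell3 and Cxcr5, and Fcmr to Ms4a1 (r = 0.98), which encodes CD20, 2010309G21Rik and Klhl14.

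Food allergy was compared with control to ask whether the receptors of IgE and the other antibodies changed in the brain's immune cells. No test on the alpha or beta chain of the IgE receptor passed the threshold, and only some were possible, since hashtag groups with at least 10 basophils or mast cells were few. In App NL-G-F basophils Fcer1a had 1421 and 2421 CPM in the 2 food allergy groups and 1865 and 1895 CPM in the 2 control groups. The food allergy groups lay on either side of the controls, and the difference was 0.06 ± 0.39 on the log2 scale (SE, edgeR quasi-likelihood, adjusted p = 1.0 over all genes of the type). Ms4a2 differed by 0.09 ± 0.36 and Fcer1g by -0.06 ± 0.32 in the same cells. In WT mice no test was possible, because 1 control group and no food allergy group held 10 basophils. The pooled WT basophils had 2576 CPM of Fcer1a in control (95% Poisson interval 2418 to 2742, 53 cells) and 1203 CPM in food allergy (1025 to 1404, 35 cells), while the App NL-G-F libraries had 1797 and 2030 CPM. These intervals cover counting error only, and the order of control and food allergy was opposite in the 2 genotypes. In mast cells the Fcer1a levels of control and food allergy were 2103 and 2059 CPM for WT mice and 2176 and 1905 CPM for App NL-G-F mice, without a test. Ms4a2 in mast cells had its lowest library in WT control (174 CPM, 17 UMIs in 26 cells) and its highest in WT food allergy (512 CPM, 42 UMIs in 33 cells), whereas the App NL-G-F libraries had 472 CPM in control and 426 CPM in food allergy.

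Across all types 52 tests of an Fc receptor gene in a cell type were possible for WT food allergy against WT control, and 2 were called at an adjusted p under 0.05, where 1.1% of all genes tested were called. Both were genes of cDC1 that fell. For Fcgr2b the WT control groups had 282 and 282 CPM and the food allergy groups 133 and 140.1 CPM. The groups did not overlap, and the log2 fold change was -1.02 ± 0.19 (adjusted p = 0.00318). For Fcer1g the control groups had 475 and 407 CPM and the food allergy groups 285 and 272 CPM, again without overlap, a log2 fold change of -0.64 ± 0.15 (adjusted p = 0.0209). These Fcer1g levels lie below the 951 CPM of empty droplets. Empty droplets held 173 CPM of Fcgr2b in the WT control library and 175 CPM in the WT food allergy library, so that the control groups lay above the free RNA of their library and the food allergy groups below it. Of the other WT libraries, acute colitis had 175 CPM and chronic colitis 183 CPM of Fcgr2b, so the control library (267 CPM) was the highest of the WT libraries.

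Other features of the cDC1 moved with these genes. Markers of macrophages (10 genes) summed to 39.4 and 26.2 CPM in the WT control groups and 6.15 and 13.8 CPM in food allergy, and markers of classical monocytes (6 genes, led by Ccr2 and Plac8) to 1099 and 674 CPM against 600.4 and 571 CPM. Markers of neutrophils (8 genes) summed to 3.28 and 2.02 CPM in control and 82.0 and 86.5 CPM in food allergy, whereas those of cDC1 (6 genes, led by Naaa) had 2285 and 2358 CPM against 2443 and 2676 CPM. The median cDC1 held 8797 UMIs in control and 5713 in food allergy. Their part in the results was not tested. With hashtags assigned by a ratio rule neither gene was called (Fcgr2b -0.68, adjusted p = 0.237, Fcer1g -0.24, adjusted p = 0.651). Each of the 4 hashtag groups was left out in turn, with an arm of 1 group assumed to vary like the others. Fcgr2b then ran from -1.07 to -0.98 and was lost without hashtag 4 or 5 of food allergy (adjusted p = 0.0877 and 0.0513), and Fcer1g ran from -0.76 to -0.51 and was called only without hashtag 7 of control (adjusted p = 0.0415).

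In App NL-G-F mice 59 tests were possible and 0 were called by edgeR, with 0.013% of all genes called and 3 Fc receptor tests at an unadjusted p under 0.05. Fcgr2b in cDC1 had 202 and 266 CPM in food allergy and 204 and 244 CPM in control, overlapping groups. Fcer1g in cDC1 had 298 and 319 CPM against 351 and 387 CPM (-0.24 ± 0.14, adjusted p = 0.956). The difference of the food allergy effect between genotypes was tested directly in 51 tests, and the 1 called was again Fcgr2b in cDC1, with 1.11 ± 0.25 on the log2 scale (App NL-G-F minus WT, adjusted p = 0.0439, 0.513% of all genes called). The difference for Fcer1g was 0.41 ± 0.21 (adjusted p = 0.750). These differences use the WT control library. That of Fcgr2b was not called under the hashtag ratio rule (0.74, adjusted p = 0.788) or without cells holding UMIs of at least 2 B cell markers (1.12, adjusted p = 0.0529). Of 8 refits without 1 group, 2 called it, those without hashtag 7 of App NL-G-F control or hashtag 4 of App NL-G-F food allergy, and the values ran from 0.84 to 1.33.

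Tests that did not pass the threshold had the same or opposite directions in the 2 genotypes. Fcgr3 in cDC2 had 81.0 and 82.3 CPM in App NL-G-F food allergy against 157 and 253 CPM in control, groups without overlap (-1.35 ± 0.57, adjusted p = 0.806), and 115 and 122 CPM in WT food allergy against 69.3 and 134 CPM in control, overlapping groups (0.31 ± 0.50, adjusted p = 0.889). The difference between genotypes was -1.67 ± 0.76 (adjusted p = 0.637). Fcgr2b in plasma cells also had opposite signs, with 0.66 ± 0.47 in WT (adjusted p = 0.958) and -1.04 ± 0.42 in App NL-G-F mice (adjusted p = 1.0). Fcgr2b in plasmacytoid dendritic cells had 92.7 and 107 CPM in WT food allergy against 37.2 and 38.0 CPM in control (1.53 ± 0.50, adjusted p = 0.292), and differed by 0.42 ± 0.47 in App NL-G-F mice (adjusted p = 1.0). Fcgr1 in cDC2 had 57.6 and 99.6 CPM in WT food allergy against 35.6 and 44.5 CPM in WT control, and 54.0 and 144 CPM in App NL-G-F food allergy against 55.7 and 60.1 CPM in control. The log2 fold changes were 1.05 ± 0.43 in WT (adjusted p = 0.369) and 0.81 ± 0.46 in App NL-G-F mice (adjusted p = 0.849). In mature B cells of WT mice Fcgr2b differed by -0.36 ± 0.22 and Fcer2a by -0.43 ± 0.34, and in those of App NL-G-F mice the values were -0.44 ± 0.19 and -0.42 ± 0.28. Fcmr differed by 0.02 ± 0.12 in WT (adjusted p = 1.0) and 0.16 ± 0.11 in App NL-G-F mice (adjusted p = 0.900). Its level in the latter was 1080.3 ± 122 CPM in food allergy and 940.4 ± 87.0 CPM in control (SD, n = 4 groups each). Simulated counts for the App NL-G-F comparison showed its reach: of genes changed 4-fold 52.6% were called in macrophages and 72.3% in neutrophils, and of genes changed 2-fold 4.76% and 6.67%.

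In colitis 3 of 191 Fc receptor tests were called in the fit of all groups, each an IgG receptor gene that was lower in macrophages or monocytes than in the control library. In WT acute colitis 1 of 41 tests was called (2.28% of all genes), in App NL-G-F acute colitis 1 of 48 (0.108%), in WT chronic colitis 1 of 43 (2.39%) and in App NL-G-F chronic colitis 0 of 59 by edgeR (0.0752%, with 8 at an unadjusted p under 0.05). In the WT contrasts these shares of the Fc receptor tests are near those of all genes, and in the App NL-G-F acute contrast the share rests on 1 test. Of all genes 0.501% were called as lower in WT acute, 0.0639% in App NL-G-F acute and 0.467% in WT chronic colitis. The acute, chronic and food allergy contrasts of a genotype share its control groups. The median log2 fold change of the Fc receptor tests for acute colitis was -0.46 (WT) and 0.02 (App NL-G-F), and for chronic colitis -0.30 and -0.18, against -0.02, 0.00, -0.01 and 0.00 over all genes. With other random seeds of the clustering 6 of 200 and 4 of 201 colitis tests were called in place of 3 of 191, and the 3 were called with both seeds. The share of all genes called with those seeds is not given here, so the higher counts are no result about these genes.

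Fcgr4 fell in the macrophages of both genotypes in acute colitis. The WT control groups had 226 and 252 CPM and the acute colitis groups 64.4 and 67.9 CPM, and the log2 fold change was -1.83 ± 0.32 (adjusted p = 0.00231). In App NL-G-F mice the acute colitis groups had 108 and 72.6 CPM and 2 control groups 251 and 250.05 CPM, while the third control group, with 10 macrophages, had 0 UMIs. The log2 fold change was -1.43 ± 0.31 (adjusted p = 0.0334). Fcgr4 in macrophages of chronic colitis was at 115 and 129 CPM in WT mice and at 127 and 83.5 CPM in the App NL-G-F groups, below the larger control groups of each genotype, and was not called (-0.90 ± 0.39, adjusted p = 0.525, and -1.06 ± 0.34, adjusted p = 0.531). Neutrophil markers (8 genes) in the macrophages summed to 69.7 and 68.2 CPM in WT control and 234 and 407 CPM in WT acute colitis, and macrophage markers to 15733 and 18617 CPM against 14360 and 17405 CPM. In App NL-G-F macrophages neutrophil markers summed to 259, 147 and 163 CPM in control and 625.3 and 665 CPM in acute colitis. The B cell gene Cd79b was called as higher in the macrophages of acute colitis in both genotypes, as given below. The part of these differences in the result was not tested. At the coarser clustering the log2 fold changes were -1.86 and -1.31 and neither was called (adjusted p = 0.319 and 0.924), and the App NL-G-F change was not called with DESeq2 (-1.31, adjusted p = 0.473) or when adjusted over all cell types (adjusted p = 0.0951). With 1 of its own groups left out the WT change ran from -1.93 to -1.76. It was lost without hashtag 4 of acute colitis or hashtag 6 of control. With 1 of its own groups left out the App NL-G-F change ran from -1.70 to -1.11. It was called only without hashtag 4 of control, the group with 10 macrophages (adjusted p = 0.000669). All conditions share the fit, and without hashtag 6 of WT control no colitis test was called, the App NL-G-F one included.

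**Figure D4:**
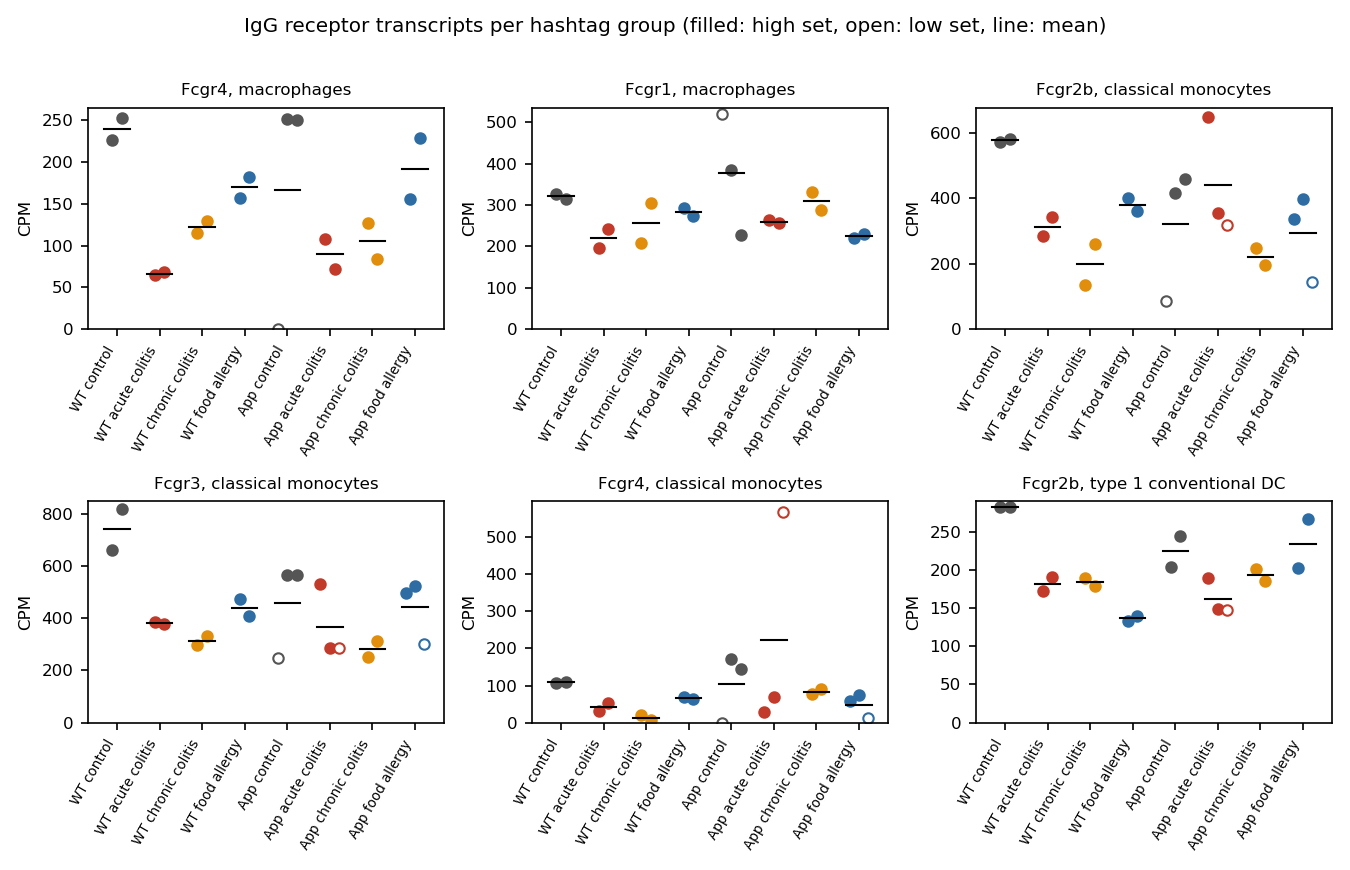
CPM of IgG receptor genes in macrophages, monocytes and cDC1 (panels, y axis from 0) for each hashtag group with at least 10 cells of the type, by library (x axis). Filled points are groups with high and open points groups with low immediate-early genes, and lines are means. Fcgr4 in macrophages stood at 64.4 and 67.9 CPM in WT acute colitis against 226 and 252 CPM in WT control.

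In classical monocytes of WT chronic colitis Fcgr3 was called as lower than in WT control. It had 662 and 819 CPM in the control groups and 296 and 330 CPM in chronic colitis, a log2 fold change of -1.32 ± 0.38 (adjusted p = 0.0443). The WT control library stood apart for this gene, with 729 CPM in its monocytes against 282 to 491 CPM in the other 7 libraries, and the WT acute colitis groups (376 and 385 CPM) and food allergy groups (408 and 473 CPM) also lay below it. Fcgr2b had 572 and 582 CPM against 134 and 261 CPM (-1.71 ± 0.56, adjusted p = 0.0707), and Fcgr4 had 106 and 111 CPM against 20.4 and 6.22 CPM (-2.64 ± 0.89, adjusted p = 0.0842). No group of one condition overlapped the other for any of the 3 genes, and those of Fcgr2b and Fcgr4 did not pass the threshold. The App NL-G-F monocytes had -0.81 ± 0.36 for Fcgr3 in chronic colitis (adjusted p = 0.643), where the 3 control groups had 246, 565 and 567 CPM and the 2 chronic colitis groups 251 and 311 CPM. The lowest of the controls was the 1 group with low immediate-early genes (48 cells). Chil3-led markers of immature neutrophils summed to 9938 and 8267 CPM in the monocytes of WT control and 1321 and 1189 CPM in chronic colitis, and macrophage markers to 470.2 and 346 CPM and 49.5 and 18.7 CPM. The B cell gene Cd79a was called as higher in these monocytes, as given below. The part of these differences in the Fcgr3 result was not tested. Monocyte markers (6 genes) summed to 5812 and 5966 CPM in WT control and 8015 and 6623 CPM in WT chronic colitis. With 1 of the 4 groups left out Fcgr3 ran from -1.50 to -1.18 and was called in none of the 4 refits (adjusted p from 0.0967 to 0.409), and adjusted over all cell types it was not called (adjusted p = 0.0868).

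Since 16 groups with high immediate-early genes held most myeloid cells, the same tests were run on those groups alone, 2 against 2 in every contrast. In WT macrophages, monocytes, neutrophils and conventional dendritic cells these were the same groups as in the fit of all groups. Their calls are therefore no second set of data, and what changed was the fit and its SE. Fcgr3 in monocytes of WT chronic colitis had -1.32 ± 0.38 there and -1.34 ± 0.19 here. In WT acute colitis 12 of 37 Fc receptor tests were then called (6.06% of all genes), in WT chronic colitis 9 of 37 (6.02%), in App NL-G-F acute colitis 2 of 43 (1.12%) and in App NL-G-F chronic colitis 6 of 48 (1.15%). Of these, 10, 9, 2 and 6 were lower than control, where 2.58%, 2.61%, 0.706% and 0.758% of all genes were called as lower. Of the 16 tests of the 4 IgG receptor genes in monocytes over the 4 colitis contrasts, 11 were called, all lower, where between 2.67% (App NL-G-F acute) and 17.9% (WT chronic) of all genes tested in monocytes were called in either direction. Of 16 in macrophages 3 were called, all lower, against 0.116% (App NL-G-F chronic) to 4.17% (WT acute) of all genes there, and of 12 in neutrophils 5, all lower, against 3.25% (App NL-G-F acute) to 17.5% (WT acute). Acute and chronic colitis of a genotype share its 2 control groups, so these tests are not independent. In the fit of all groups 1, 2 and 0 of the same tests were called in monocytes, macrophages and neutrophils. In App NL-G-F monocytes Fcgr4 fell in acute colitis (-1.70 ± 0.35, adjusted p = 0.00653), and Fcgr3 (-1.10 ± 0.20, adjusted p = 0.00142), Fcgr2b (-1.08 ± 0.24, adjusted p = 0.00841) and Fcgr4 (-0.98 ± 0.25, adjusted p = 0.0259) fell in chronic colitis. In the fit of all groups Fcgr4 in the App NL-G-F monocytes of acute colitis had -0.17 ± 0.81 (adjusted p = 0.996). The acute colitis group of that genotype left out here, low in immediate-early genes, had 567.96 CPM of Fcgr4 in its monocytes (16 UMIs in 10 cells) against 29.5 and 68.3 CPM in the other groups of that library. In WT monocytes of chronic colitis Fcgr4 (-2.63 ± 0.30), Fcgr2b (-1.83 ± 0.23), Fcgr3 (-1.34 ± 0.19) and Fcgr1 (-0.93 ± 0.32, adjusted p = 0.0445) all fell. In neutrophils Fcgr3 fell in WT acute (-1.32 ± 0.25), WT chronic (-1.16 ± 0.24) and App NL-G-F chronic colitis (-0.98 ± 0.24, adjusted p = 0.0135). The neutrophil clusters pooled here differed in Fcgr3, as given above, and the part of their mix in this fall was not tested. In the fit of all groups a B cell gene was called as higher in the monocytes of chronic colitis of both genotypes. This was Cd79a in WT and Cd79b in App NL-G-F mice, and its part in these results was not tested.

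The 2 tests called as higher in these groups were Fcmr in monocytes and neutrophils of WT acute colitis. In monocytes it had 0 UMIs in both control groups and 11 and 1 UMIs (30.9 and 4.82 CPM) in the acute colitis groups (adjusted p = 0.0168), and in neutrophils 0 UMIs in control and 6 and 17 UMIs (13.1 and 68.5 CPM, adjusted p = 0.00504). These are low levels beside the 968 CPM of mature B cells. The B cell gene Cd79a rose in the same monocytes from 0.860 to 153 CPM (adjusted p = 0.000467) and in the neutrophils from 0.720 to 288 CPM (adjusted p = 0.0203) in the fit of all groups, and its part in the Fcmr result was not tested.

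In food allergy the groups with high immediate-early genes gave 5 of 41 called tests in WT (2.78% of all genes) and 1 of 48 in App NL-G-F mice (0.175%). Fcgr4 in monocytes was called in both genotypes. In the fit of all groups it was called in neither (WT -0.72 ± 0.65, adjusted p = 0.772, App NL-G-F -0.95 ± 0.72). The WT control groups had 106 and 111 CPM and the food allergy groups 69.0 and 63.2 CPM (-0.73 ± 0.21, adjusted p = 0.0279), and the App NL-G-F control groups had 171 and 145 CPM against 59.2 and 75.3 CPM (-1.23 ± 0.26, adjusted p = 0.0366). Fcgr3 in monocytes fell in WT mice (-0.78 ± 0.17, adjusted p = 0.00521). It was not called in the fit of all groups (-0.77 ± 0.36, adjusted p = 0.435). The cDC1 genes Fcgr2b and Fcer1g were called again (-1.03 ± 0.18 and -0.66 ± 0.14), in the same hashtag groups as before. Fcer1g rose in the ILC2 of WT mice (1.48 ± 0.39, adjusted p = 0.0168), from 16.5 and 15.4 CPM to 47.7 and 34.1 CPM. The food allergy levels lay above the CD4 T cell groups of that library (mean 19.1 CPM, highest 26.9 CPM). They lay below its empty droplets (1537 CPM), which also held more Fcer1g than those of WT control (989 CPM). In the fit of all groups Fcer1g in WT ILC2 was not called (0.91 ± 0.45, adjusted p = 0.432). The third food allergy group, left out here, had 10.2 CPM, below the lowest WT control group (15.4 CPM).

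The hashtag groups of the App NL-G-F acute colitis library differed in their neutrophils. The 2 groups with high immediate-early genes had 173 and 187 CPM of Fcgr3 in 52 and 41 cells, and the third group, with low immediate-early genes, had 341 CPM in 1199 cells. The level of the whole library (338 CPM) was thus that of 1 hashtag group, and the library's position above the control (297 CPM) did not hold for the other 2.

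**Figure D5:**
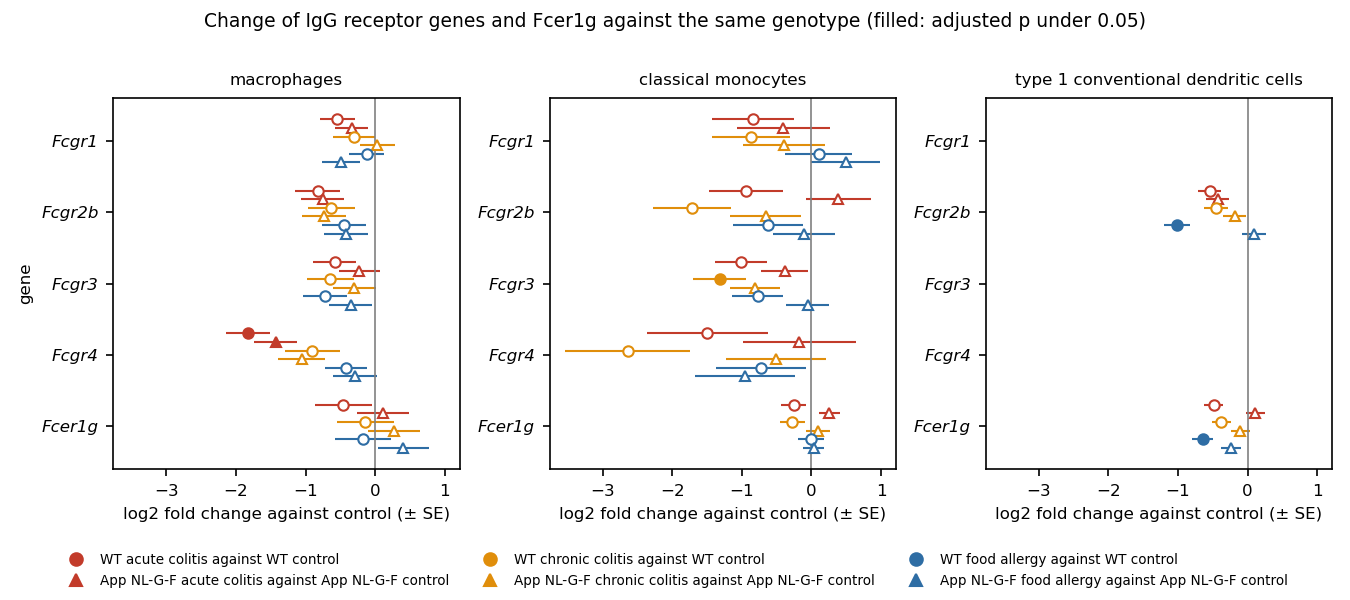
Log2 fold change against the control of the same genotype (x axis, ± SE) for the 4 IgG receptor genes and Fcer1g (y axis) in myeloid cell types (panels), with circles for WT and triangles for App NL-G-F contrasts. Filled symbols have an adjusted p under 0.05, among them Fcgr4 in macrophages in acute colitis (-1.83 and -1.43) and Fcgr3 in monocytes in WT chronic colitis (-1.32).

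In the fit of all groups no test of Fcer1a, Ms4a2, Fcer1g, Fcer2a or Fcmr was called in colitis. In the groups with high immediate-early genes Fcer1g was called as lower in neutrophils (-0.50 ± 0.15, adjusted p = 0.0285) and cDC1 (-0.50 ± 0.13, adjusted p = 0.0197) of WT acute colitis, in cDC2 of WT chronic colitis (-0.48 ± 0.13, adjusted p = 0.0315) and in ILC2 of App NL-G-F chronic colitis (-2.15 ± 0.53, adjusted p = 0.0421). Fcgr2b was called as lower in mature B cells of WT chronic colitis (-0.77 ± 0.18, adjusted p = 0.0128) in those groups. The Fcer1g levels of the cDC1 and ILC2 named here lay below those of empty droplets. The ILC2 groups of App NL-G-F control had a mean of 21.2 CPM, against 855 CPM in that library's empty droplets. The cDC1 groups of WT acute colitis had a mean of 292 CPM, against 913 CPM. Fcer1a in mast cells of App NL-G-F acute colitis had 1660 and 803 CPM against 2026 and 2533 CPM in control, groups without overlap (-0.79 ± 0.36, adjusted p = 0.720), and the WT acute colitis library had 885 CPM against 2103 CPM in WT control, without a test. Ms4a2 in the same App NL-G-F groups had 458 and 446 CPM against 457 and 477 CPM. Fcer2a in mature B cells differed by -0.57 ± 0.29 in acute (adjusted p = 1.0) and -0.73 ± 0.28 in chronic colitis (adjusted p = 0.624) of App NL-G-F mice. Fcmr and Fcgr2b in small pre-B and immature B cells of App NL-G-F acute colitis differed by 1.05 ± 0.45 (adjusted p = 0.788) and 1.02 ± 0.49 (adjusted p = 0.794).

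The genotype alone had 0 of 51 Fc receptor tests called by edgeR in App NL-G-F control against WT control, with 1.82% of all genes called and 3 Fc receptor tests at an unadjusted p under 0.05. Fcgr3 in monocytes, with 246, 565 and 567 CPM in App NL-G-F and 662 and 819 CPM in WT groups, differed by -0.65 ± 0.33 (adjusted p = 0.412). In the macrophages of the control libraries Fcgr1 had 344 CPM in App NL-G-F and 326 CPM in WT mice, Fcgr2b 919 and 1088 CPM, Fcgr3 793 and 833 CPM and Fcgr4 243 and 231 CPM.

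Genes around the receptors were counted in the same fits. Of 30 genes that carry the signal of Fc receptors (kinases, adaptors, phosphatases and calcium channels), 1 of 425 tests was called in WT food allergy, against 1.1% of all genes, and 0 of 469 in App NL-G-F food allergy by edgeR, against 0.013% (19 at an unadjusted p under 0.05). The 1 called was Orai1 in cDC1 (-1.04 ± 0.23, adjusted p = 0.0135). Orai1, the pore of the calcium channel opened after receptor cross-linking, had 132 CPM in food allergy and 280.4 CPM in control, and it was also called in cDC1 in WT acute (-1.11 ± 0.21) and chronic colitis (-0.99 ± 0.21), which share those controls. Of 347 signalling tests in WT acute colitis 3 were called (2.28% of all genes), the others being Lat in macrophages (-2.28 ± 0.55) and Fgr, a kinase of myeloid cells, in cDC2 (-1.03 ± 0.28). Of 371 in WT chronic colitis 4 were called (2.39% of all genes), the others being Fgr in cDC2 (-1.44 ± 0.31) and Orai1 in cDC2 (-1.22 ± 0.30) and monocytes (-0.86 ± 0.25). In App NL-G-F colitis 0 of 380 acute and 0 of 469 chronic tests were called by edgeR, with 37 and 21 at an unadjusted p under 0.05 and 0.108% and 0.0752% of all genes called.

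Of 12 other immunoglobulin receptors and receptor-like genes, 4 of 41 tests were called in WT acute colitis, against 2.28% of all genes. Cd300lf, an inhibitory receptor, was lower in cDC2 (-1.91 ± 0.49), Lgals3 lower in neutrophils (-1.49 ± 0.36), Fcgrt, the neonatal Fc receptor, lower in cDC1 (-0.75 ± 0.19) and Fcrla higher in plasma cells (1.5 ± 0.32). In WT chronic colitis 1 of 44 was called (2.39% of all genes), Fcgrt in cDC2 (-1.08 ± 0.27, adjusted p = 0.0357), and in App NL-G-F acute colitis 1 of 43 (0.108% of all genes), Cd300lf in macrophages (-4.16 ± 0.95, adjusted p = 0.0404). Of 8 adaptor genes, 5 of 96 tests were called in WT food allergy (1.1% of all genes), all Hcst in lymphocytes and all higher than in WT control, and 0 of 105 in App NL-G-F food allergy by edgeR (0.013% of all genes, 8 adaptor tests at an unadjusted p under 0.05). In WT acute colitis 10 of 82 were called (2.28% of all genes) and in WT chronic colitis 6 of 85 (2.39%), all higher than in WT control. Of these, 5 in each contrast were Hcst in lymphocytes. The others were genes of the B cell receptor, Cd79a in monocytes in both contrasts, and in acute colitis Cd79a in neutrophils and Cd79b in monocytes, macrophages and neutrophils. In App NL-G-F mice 1 of 90 was called in acute colitis (0.108% of all genes), Cd79b in macrophages (1.55 ± 0.37, adjusted p = 0.0449), and 1 of 105 in chronic colitis (0.0752%), Cd79b in monocytes (3.15 ± 0.50, adjusted p = 0.0123). Of 93 adaptor tests between the control libraries 6 were called (1.82% of all genes), and of 93 for the difference of the food allergy effect between genotypes 2, Hcst in CD8 T and NK cells, both lower (0.513% of all genes). Hcst was called in 5 lymphocyte types between the control libraries, which is the difference of the WT control library described above, and Tyrobp, a further adaptor, was higher in NK cells of the App NL-G-F control (0.61 ± 0.14).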

How the data were processed

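Single-cell 5′ RNA sequencing libraries (10x Genomics) of sorted CD45.2+ brain cells were analysed from the UMI counts that the authors deposited for all barcodes, as made with Cell Ranger 6.1.2 against mm10 per the labels. The deposited counts had not been filtered for cells. Barcodes were called as cells with an order-of-magnitude cutoff (3000 expected cells) and a test of the remaining barcodes (500 UMIs or more) for departure from the ambient RNA (barcode ranks 45000 to 90000, 1000 simulations, FDR 0.01), then filtered as in the study's methods (at least 200 genes, at most 5% mitochondrial UMIs). Cells with several hashtags were left out as doublets, which does not remove doublets within a hashtag. The study's own cell annotation was not used here. Clusters (scanpy 1.11.5, leidenalg 0.10.2, 2000 variable genes without the 9 receptor genes, 30 principal components, 20 neighbours, resolution 1) were named from at least 3 detected markers, and clusters without a name were left out of the levels. Depth was 22704082 to 46888575 UMIs per library, with a median of 3181 UMIs per cell, so a gene at 50 CPM is seen in few cells of a type.

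UMIs were summed per cell type and library for levels, and per cell type and hashtag group (at least 10 cells) for tests with edgeR 4.0.16 (quasi-likelihood, TMM, filterByExpr, R 4.3.3) in 1 fit per type over all conditions, adjusted by Benjamini-Hochberg over the genes of the type. A contrast needed 2 groups per arm and was called at 0.05. Poisson and binomial intervals (exact, 95%) cover counting error only. Coordinates and overlaps came from GENCODE on GRCm38, upstream windows from RefSeq. The genes named were the 9 receptor genes, called genes of 3 lists (at most 5 per contrast and type) and the 3 most similar genes of each receptor, of which 1 is not reported here. The receptor genes and the lists were chosen with earlier results of these data known. The fit was tested on simulated counts. Alternatives covered cell calls, clustering (resolution 0.5, and random seeds 1 and 2 in place of 0), hashtag rules, count filters, DESeq2 1.42.0, immediate-early sets and left-out groups.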

Additional observations from a re-analysis of the deposited data

Results flagged for a closer look

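Of 49 levels tested, those with a mean of at least 50 CPM in 4 to 8 libraries, 6 had a library far from the others by Dixon's criterion, which chance alone flags in about 1 in 20. Fcgr3 in classical monocytes was highest in WT control with 729 CPM (1727 UMIs in 314 cells), with 282 to 491 CPM in the other libraries, and Fcgr4 in neutrophils was highest in the same library with 95.4 CPM (193 UMIs in 217 cells) against 30.4 to 60.6 CPM. That library stood apart in Hcst too. Fcgr2b in neutrophil precursors reached 118 CPM in WT food allergy (319 UMIs in 189 cells) against 88.9 to 101.1 CPM, and in plasmacytoid dendritic cells of that library 97.5 CPM (26 UMIs in 37 cells) against 36.8 to 58.0 CPM. Fcgr3 in neutrophil precursors was lowest in WT acute colitis with 105 CPM (46 UMIs in 27 cells) against 154 to 186 CPM. Fcmr in small pre-B and immature B cells reached 277 CPM in App NL-G-F acute colitis (39 UMIs in 87 cells) against 119 to 193 CPM.

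The effect of food allergy on Fcgr2b in cDC1 differed between genotypes by 1.11 on the log2 scale in the interaction test (App NL-G-F minus WT). The WT control groups had 282 and 282 CPM against 133 and 140.1 CPM in food allergy, while the App NL-G-F groups overlapped.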

How the results depend on the processing

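With 1 library per condition, most tests of macrophages and conventional dendritic cells had 2 hashtag groups per arm, and low genes such as Fcer2a or Fcgr4 rest on few UMIs per group. The 6 called Fc receptor tests kept their direction under every alternative that gave a value. No paired analysis was made, because each condition has 1 library and the labels tie no hashtag number to a mouse, day or batch. The hashtag numbers 4 to 7 do recur across libraries. The groups with high immediate-early genes were hashtags 6 and 7 in control and chronic colitis, and 4 and 5 in acute colitis and food allergy. A fit with the immediate-early set as a term is among the alternatives below.

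Of the shares of cells with a UMI, all 9 moved when cells were thinned to 1000 UMIs: in macrophages to 21.1% (Fcgr1), 47.8% (Fcgr2b), 47.7% (Fcgr3) and 10.2% (Fcgr4), to 95.01% for Fcer1g in monocytes, in basophils to 65.8% (Fcer1a) and 57.4% (Ms4a2), and in mature B cells to 14.8% (Fcer2a) and 54.7% (Fcmr). With the order-of-magnitude cutoff alone, which keeps cells of more UMIs, they were 64.6% (Fcgr1), 87.7% (Fcgr2b), 90.6% (Fcgr3), 40.6% (Fcgr4), 97.8% (Fcer1a), 98.3% (Ms4a2), 30.02% (Fcer2a) and 91.5% (Fcmr), and Fcer2a had 113 CPM. With cells of several hashtags kept, Fcgr1 and Fcgr3 in macrophages had 211 and 522 CPM.

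Counts of called Fc receptor tests depended on the fit. Only for the fit of all groups and the high set is the share of all genes called given above. Under the other fits, and with groups left out below, a count cannot be set against that share. WT food allergy, with 2 in the report, gave 5 within the high set and 0 under the hashtag ratio rule. App NL-G-F food allergy, with 0, gave 4 without a filter and 1 within the high set, and the genotype, with 0, gave 3 without a filter and 1 with the immediate-early set as a term and within the low set. The difference between genotypes, with 1, gave 5 without a filter and 0 under the hashtag ratio rule and without cells holding 2 B cell markers. The 4 colitis contrasts together, with 3, gave 29 without a filter and within the high set, 16 with the set as a term, 6 with at least 20 cells and with clustering seed 1, 5 with at least 2 markers per cell, and 1 when adjusted over all cell types. The App NL-G-F colitis contrasts counted alone gave 1 of 107 called. That count comes from the fit of all groups, which includes the WT control library. The other seeds, the left-out B cell markers and the count of the App NL-G-F contrasts alone were chosen after seeing the data. Signalling genes in food allergy, with 1, gave 5 without a filter, 2 with at least 20 cells, 3 with the set as a term, 9 and 0 within the high and low sets and 0 under the hashtag ratio rule. Within the low set WT food allergy and the difference between genotypes could not be tested.

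Leaving out 1 hashtag group at a time, the lowest and highest counts were 0 (without hashtag 4 or 5 of WT food allergy) and 2 for WT food allergy, 0 and 0 for App NL-G-F food allergy and for the genotype, and 0 and 1 for the difference between genotypes. They were 0 (without hashtag 6 of WT control) and 8 (without hashtag 7 of App NL-G-F acute colitis or hashtag 5 of App NL-G-F control) for colitis, where hashtag 4 of WT acute colitis or hashtag 7 of WT control left out gave 1. For signalling genes they were 0 (without hashtag 7 of WT control or hashtag 4 or 5 of WT food allergy) and 3 (without hashtag 4 of WT control or hashtag 7 of WT food allergy), with 2 without hashtag 7 of App NL-G-F control. Leaving out groups was chosen after seeing the data for all but the food allergy contrasts.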
